A study of Mus musculus with 74 samples.

Results

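The alpha- and beta-globin genes encode the protein chains of haemoglobin. The 6 genes described here are 3 of the alpha cluster (Hba-x, Hba-a1 and Hbq1b) and 3 of the beta cluster (Hbb-bh1, Hbb-bt and Hbb-bs), out of 21900 protein-coding genes on the mouse annotation used (GRCm38.p6). They were chosen by name, and their contacts by position: an interaction was counted when the captured restriction fragment held the annotated start or end of one of these genes, or when the contact landed in 1 of 2 windows, chr11:32150000-32310000 for the alpha cluster and chr7:103780000-103900000 for the beta cluster. A fragment was taken as captured when it stood in the first column of at least 1 of the 3 lists of interactions described below. A captured fragment that never stood there would be missed. By this definition 5 of the 6 genes had a captured fragment, against 16720 of the 21900 genes. Only 1 gene, Hbb-bs, had a transcript whose identifier was paired with its name.

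All cells were HPC-7, a mouse line of blood stem and progenitor type that grows in stem cell factor (SCF). For RNA-seq they carried an inducible short hairpin, induced with doxycycline for 72 h, that was labelled Luc (taken as the control) or targeted Stag2, Rad21 or Smc1a, which are subunits of the cohesin complex. HPC libraries came from cells kept in 100 ng/ul SCF: 3 Luc, 3 shStag2, 3 shRad21 and 2 shSmc1a. Ery libraries came from cells induced in the same way and then given 4 U/l erythropoietin (EPO) and 20 ng/ul SCF for 48 h: 2 Luc and 2 shStag2. Promoter capture Hi-C, which enriches ligated fragment pairs for those that hold a promoter, covered 3 conditions, non-transduced HPC, Ery Luc and Ery shStag2; the authors pooled the 2 libraries of each into 1 list of interactions. The HPC list therefore differs from the Ery Luc list in hairpin, doxycycline and SCF as well as in EPO. In the RNA-seq too, Ery cells had EPO and a lower SCF concentration together, and the parts of EPO and SCF in a difference between HPC and Ery cannot be told apart. One Ery Luc capture library is labelled 73 h of doxycycline in place of 72 h. The Ery capture libraries are labelled with the same EPO and SCF concentrations as the Ery RNA-seq libraries, but no EPO time is given for them. The titles of the HPC RNA-seq libraries carry the word inhibitor, which no label explains and which the Ery titles lack, so its part in any HPC to Ery difference cannot be told apart from that of the culture change. The labels do not say whether libraries of a group came from separate cultures, so a p-value here speaks of the spread among the libraries at hand, which may be technical.

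Haemoglobin joins alpha-like and beta-like chains, and red cell precursors make both in very large amounts. In each cluster the embryonic genes lie nearer to a distant set of enhancers than the adult genes do. The alpha-globin enhancers lie upstream of the cluster, several of them in introns of the housekeeping gene Nprl3. The beta-globin enhancers form the locus control region, between the embryonic gene Hbb-y and the olfactory receptor genes upstream. Cohesin holds together distant stretches of DNA and takes part in bringing enhancers and promoters near to each other.

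Hba-x, the embryonic zeta chain gene, lies at chr11:32276600-32278116 on the plus strand. Hba-a1, an adult alpha chain gene, lies at chr11:32283672-32284486, and Hbq1b, a theta globin gene, at chr11:32286964-32287912, both on the plus strand. The start of Hba-x was on a captured fragment of its own, chr11:32275084-32276932, while its end shared the fragment chr11:32276933-32291051 with the whole of Hba-a1 and Hbq1b. Contacts of Hba-a1 and Hbq1b are therefore the same contacts. In the beta cluster the genes are on the minus strand. Hbb-bh1, an embryonic beta-like gene, lies at chr7:103841638-103843162. Its start was on the captured fragment chr7:103843126-103844034, and its end on chr7:103840053-103842715, which also holds the start of its neighbour Hbb-bh2. Hbb-bs, which encodes an adult beta chain, lies at chr7:103826523-103827928, with its start on the captured fragment chr7:103827238-103828263. Hbb-bt, the other adult beta gene, lies at chr7:103812524-103813923. Neither its start nor its end was on a fragment found in the first column of a list, and no contact of its own was counted. Whether a fragment of Hbb-bt was captured without a listed contact is not known.

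The promoters below are shown because they are the sequences at which the captured contacts of these genes begin, except that of Hbb-bt, which is shown beside Hbb-bs because their transcripts are close copies. Each run is the 250 bases before the annotated start, 5′ to 3′ on the gene's own strand, from RefSeq (GRCm38.p6), and 5 of the 6 genes had an entry. Capitals mark every match, on either strand, of GATAA (the core bound by GATA factors), CACCC (bound by KLF factors), CCAAT and TATAAA.
Hba-x, chr11:32276350-32276599: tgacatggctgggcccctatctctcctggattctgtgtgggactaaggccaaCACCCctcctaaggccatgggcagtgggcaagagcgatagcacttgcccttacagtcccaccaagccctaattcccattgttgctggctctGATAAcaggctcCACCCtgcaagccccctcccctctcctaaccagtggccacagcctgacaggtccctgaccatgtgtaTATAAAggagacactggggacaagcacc
Hba-a1, chr11:32283422-32283671: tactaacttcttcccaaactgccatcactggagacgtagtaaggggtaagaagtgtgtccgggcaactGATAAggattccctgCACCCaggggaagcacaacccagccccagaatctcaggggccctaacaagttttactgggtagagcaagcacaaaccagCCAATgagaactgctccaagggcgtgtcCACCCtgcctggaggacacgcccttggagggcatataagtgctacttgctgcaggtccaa
Hbb-bt, chr7:103813924-103814173: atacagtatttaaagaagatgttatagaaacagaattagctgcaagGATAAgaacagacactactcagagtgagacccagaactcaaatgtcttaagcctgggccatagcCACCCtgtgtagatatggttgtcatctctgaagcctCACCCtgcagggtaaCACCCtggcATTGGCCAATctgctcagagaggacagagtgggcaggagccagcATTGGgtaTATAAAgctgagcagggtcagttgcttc
Hbb-bs, chr7:103827929-103828178: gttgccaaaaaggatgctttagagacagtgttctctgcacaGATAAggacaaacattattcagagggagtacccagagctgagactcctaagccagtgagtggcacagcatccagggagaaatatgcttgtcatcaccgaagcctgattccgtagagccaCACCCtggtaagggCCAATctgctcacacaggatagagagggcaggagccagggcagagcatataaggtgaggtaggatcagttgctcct
On either strand, GATAA was in 4 of the 5 promoters, those printed, and in 22.6% of 32851 promoters of the same length. The CACCC motif was in the same 4, and in 52% of all. Hbb-bt had 3 CACCC matches and Hbb-bs 1. The CCAAT box was in 4 of 5, all but Hba-x, against 33.8% of all, and in Hbb-bt a reversed copy of it ran directly into a forward copy. The TATAAA box was in Hba-x and Hbb-bt, against 12.4% of all. The promoter of Hbq1b held 1 CCAAT box and no match of the other 3 motifs. TGAGTCA, the core bound by the NF-E2 and AP-1 factors, was searched as well on both strands and was in none of the 5 promoters and in 4.46% of all. Over the aligned bases, Hbb-bs and Hbb-bt were identical at 185 of 239 (77.4%). Hba-a1 and its copy Hba-a2 were identical at 247 of 247, and Hbq1b and its copy Hbq1a at 239 of 250 (95.6%). A match is a description of the letters, not a measured binding site.

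Adult beta-globin RNA was low in progenitors, far lower in progenitors with any of the 3 cohesin hairpins, and far higher after the change to EPO and lower SCF. The Hbb-bs transcript (ENSMUST00000023934.6) had 143, 121 and 211 reads in the 3 HPC Luc libraries, which is 6.30, 5.26 and 7.06 CPM (reads relative to library size, scaled by TMM, edgeR's correction for library composition). In HPC shStag2 it had 7, 14 and 0 reads, or 0.228, 0.375 and 0 CPM. The library with 0 reads allows up to 0.129 CPM, taking 3 reads as the limit. HPC shRad21 libraries had 7, 2 and 4 reads (0.261, 0.0557 and 0.183 CPM), and HPC shSmc1a libraries 3 and 1 (0.114 and 0.0430 CPM). Every cohesin-hairpin library lay below every Luc library in HPC, with no overlap. In Ery the 2 Luc libraries had 44946 and 39077 reads, or 1522 and 1570 CPM. The 2 Ery shStag2 libraries had 5416 and 6370 reads, or 222.1 and 222.5 CPM. Both lay below both Ery Luc libraries and above all HPC libraries. The share of all transcripts whose libraries separate in these ways was not computed.

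**Figure D1:**
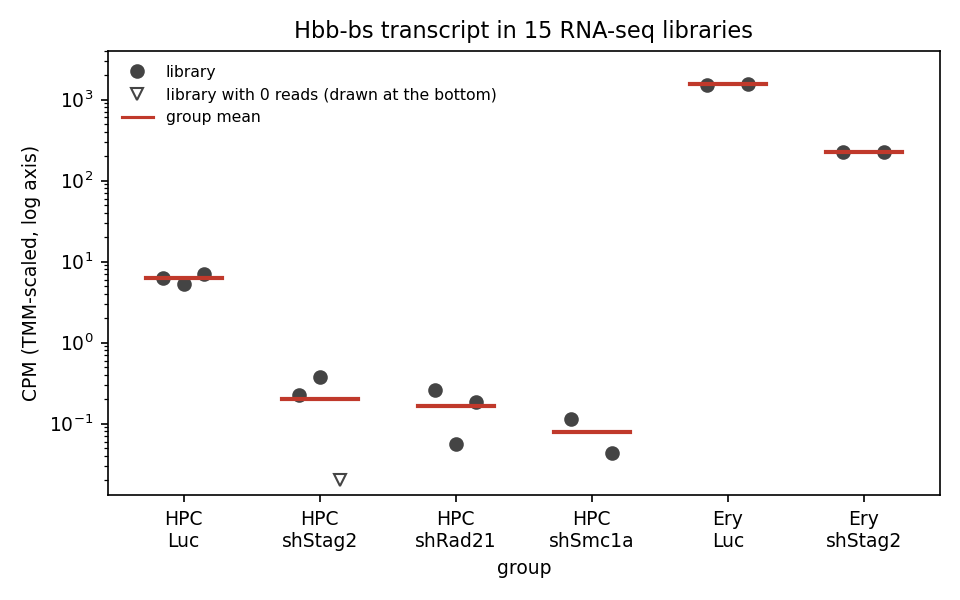
Level of the Hbb-bs transcript in each of the 15 RNA-seq libraries, in TMM-scaled CPM on a log axis, by group, with the group mean as a red line and the library with 0 reads drawn as an open triangle at the bottom. HPC Luc lies between 5.26 and 7.06 CPM, all 8 cohesin-hairpin HPC libraries lie at or under 0.375, and the Ery groups lie near 1546 (Luc) and 222 (shStag2).

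In HPC, the mean was 6.21 ± 0.905 CPM (SD, n = 3) with Luc and 0.201 ± 0.189 (n = 3) with shStag2. The transcript fell by 4.74 on the log2 scale (SE 0.27), or 26.7-fold, with an adjusted p of 6.55e-09 (edgeR quasi-likelihood test, Benjamini-Hochberg over 18065 transcripts). Over all transcripts, 1.45% were called lower in that comparison, and Hbb-bs had the third lowest log2 fold change. With shRad21 the mean was 0.167 ± 0.104 CPM (n = 3), a fall by 5.30 (SE 0.30, 39.4-fold, edgeR adjusted p = 3.23e-09). There 3.95% of transcripts were called lower, and 1 transcript had a lower log2 fold change than Hbb-bs. With shSmc1a the mean was 0.0786 ± 0.0503 CPM (n = 2), a fall by 6.19 (SE 0.42, 73.2-fold, edgeR adjusted p = 3.94e-08). Of the 18065 transcripts, 1.98% were called lower with shSmc1a, and Hbb-bs had the lowest log2 fold change of all. The 3 comparisons share the same Luc libraries and are not independent of each other. The size of each fall rests on few reads: without shStag2 replicate 2 the shStag2 value was -5.54, and without shSmc1a replicate 1 the shSmc1a value was -7.04, both still past the threshold.

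The 3 hairpins did not differ detectably from each other at this depth. From summed reads and exact 95% Poisson intervals, which cover counting error only, shStag2 stood at 0.230 CPM (0.142 to 0.352), shRad21 at 0.154 (0.0818 to 0.263) and shSmc1a at 0.0808 (0.0220 to 0.207). The log2 difference was -0.56 for shRad21 against shStag2, with an edgeR adjusted p of 0.859 and 0.149% of transcripts called lower. It was -1.45 for shSmc1a against shStag2 (edgeR adjusted p = 0.477, 0.919% called lower) and -0.89 for shSmc1a against shRad21 (edgeR adjusted p = 0.678, 1.21% called lower). Leaving out shStag2 replicate 2, the highest of its group, turned the first of these to 0.24.

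From HPC to Ery the Hbb-bs transcript rose in both hairpin lines. The Luc mean went from 6.21 to 1546 ± 33.5 CPM (n = 2), a rise of 7.95 on the log2 scale (SE 0.15), or 247-fold, with an edgeR adjusted p of 6.52e-17. In that comparison 20.2% of transcripts were called higher, and Hbb-bs had the 7th highest log2 fold change. With shStag2 the mean went from 0.201 to 222 ± 0.248 CPM (n = 2), a rise of 9.89 (SE 0.21), or 951-fold (edgeR adjusted p = 3.79e-16, 19.9% called higher). This fold rests on the 21 reads of the HPC shStag2 group, and without HPC shStag2 replicate 2 the rise was 10.69. Within Ery, shStag2 was below Luc by 6.95-fold (log2 difference -2.80, SE 0.14, edgeR adjusted p = 1.17e-09). Here 3.7% of transcripts were called lower, and Hbb-bs had the 59th lowest log2 fold change. In these bulk samples, fewer cells that make the transcript and less of it per cell cannot be told apart.

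The rise from HPC to Ery on the log2 scale was larger with shStag2 than with Luc by 1.94 (SE 0.37, 95% interval 1.18 to 2.71, edgeR adjusted p = 0.0105 for the interaction). For this interaction 0.659% of transcripts were called higher. The same term says that the gap between shStag2 and Luc was narrower in Ery (6.95-fold) than in HPC (26.7-fold). It lost its call without HPC shStag2 replicate 1, with a value of 1.94 and an edgeR adjusted p of 0.0552, and it was 2.74 without HPC shStag2 replicate 2. On the linear scale the order was the other way: the gain was from 6.21 to 1546 CPM with Luc and from 0.201 to 222 CPM with shStag2. The order of the 6 groups was Ery Luc, Ery shStag2, HPC Luc, and then the 3 cohesin-hairpin HPC groups, whose order among themselves did not exceed their spread.

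Over the 6 group means of log2 CPM (prior count 2), the patterns most like that of Hbb-bs were those of ENSMUST00000060389.8 (Pearson r = 0.997) and ENSMUST00000043599.6 (r = 0.996). The most opposite were ENSMUST00000107922.2 and ENSMUST00000030110.13 (r = -0.997 for both). The 6 points share their libraries and are dominated by the step from HPC to Ery, and 1871 of 18064 other transcripts (10.4%) had an r over 0.9. Symbols of these transcripts are not given here.

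Each RNA-seq library had 22288469 to 33355332 reads assigned to a transcript. Reads labelled ambiguous came to 24.2 to 26.9% of all, a share that does not tell how many reads Hbb-bs shares with its close copy Hbb-bt. Such shared reads were not examined and may be missing from the counts. The levels are a measure of Hbb-bs with that uncertainty. Among HPC libraries, each one numbered 3 stood apart from the others of its hairpin on the first principal component, toward the side of both shSmc1a libraries. The part of this grouping in the shSmc1a comparisons cannot be fully told apart from that of the hairpin. With the libraries numbered 3 and both shSmc1a libraries as a set in the fit, the log2 value for shSmc1a against Luc was -6.31. Without the HPC libraries numbered 3, the difference between the rises was 1.41. The targeted cohesin genes and markers of erythroid or other blood cell types were not analysed here, so the labels rest on the Hbb-bs transcript alone, which was high in every Ery library and low in every HPC library.

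Most listed contacts of the globin fragments scored under 6. Over the 5 fragments together, more were listed in both Ery conditions than in HPC, and which fragments they reached differed from list to list. Each entry of a list is a pair of fragments with the authors' score, at least 5 in every entry, and the lists hold 112183 (HPC), 123042 (Ery Luc) and 130734 (Ery shStag2) entries. As each list pools its 2 libraries, no difference between lists could be tested. A pair in which both fragments were captured is listed in 1 order only, and such pairs make up 21.4, 19.5 and 18.5% of the lists. A count of the first column alone can therefore miss contacts of a captured fragment. With the globin fragment in the first column, the 5 fragments had 4 contacts in HPC, 26 in Ery Luc and 18 in Ery shStag2. Counted in either column, the numbers were 12, 27 and 27. Scores under 6 made up 7 of the 12, 17 of the 27 and 15 of the 27, and 3, 4 and 9 reached 7. The median score was 5.795, 5.74 and 5.76, against 6.56, 6.32 and 6.33 over the whole lists.

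All 5 genes with a captured fragment had at least 2 more contacts in Ery Luc than in HPC, in the first column and in either column. Of all genes with contacts, 39% had such a gain in the first column and 40.9% in either, while 24.4 and 25.1% had at least 2 fewer. Hba-a1 and Hbq1b count the same fragment, and Hba-x shares it. From Ery Luc to Ery shStag2, 4 of the 5 genes had at least 2 fewer in the first column (25.5% of all genes) and 3 of the 5 in either column (26.9% of all genes). None had at least 2 more, against 32% of all genes in the first column and 33.3% in either. The gene that differs between these 2 counts is Hbb-bh1, described below. From HPC to Ery shStag2, 3 of the 5 genes had at least 2 more in both counts, and the share of all genes was not computed. The median difference there was 3 in the first column and 2 in either, against 1 for all genes in both counts.

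**Figure D2:**
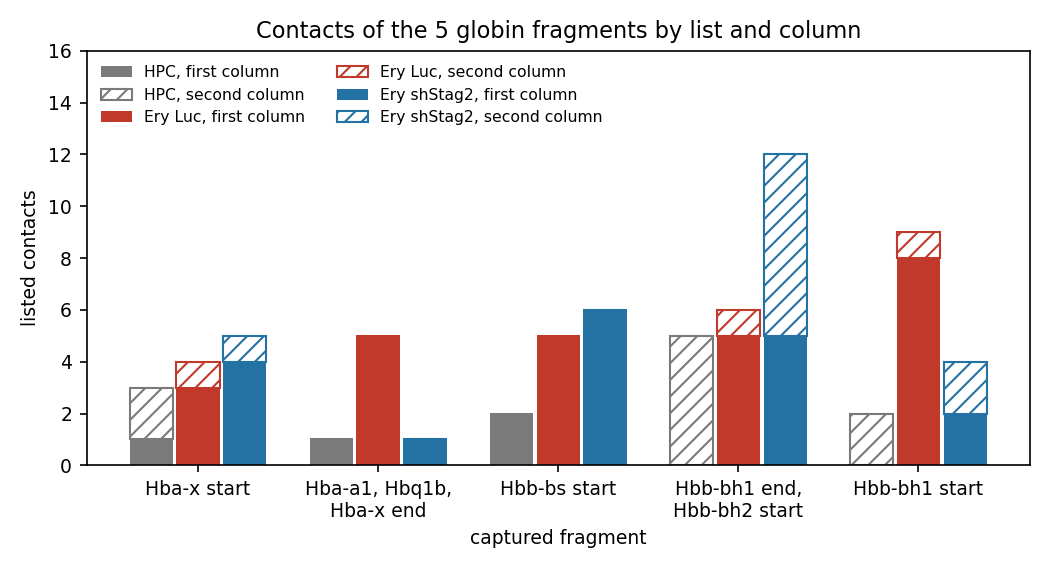
Number of listed contacts of each of the 5 captured globin fragments in the HPC, Ery Luc and Ery shStag2 lists, with filled bars for contacts that name the fragment in the first column and hatched bars for those that name it in the second. The Hba-a1 fragment has 1, 5 and 1, and all contacts of both Hbb-bh1 fragments in HPC are in the second column.

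In the alpha cluster, the fragment of Hba-a1 and Hbq1b had 1 contact in HPC, 5 in Ery Luc and 1 in Ery shStag2, and with scores of at least 7 it had 1 in each. The contact that all 3 lists hold joined it to chr11:32256431-32275083, the fragment that holds the start of Nprl3, 18.2 kb away between fragment centres. Only the start fragment of Hba-x, 1849 bases long, lies between these 2 fragments. The score of this contact was 11.07 in HPC, 18.02 in Ery Luc and 12.08 in Ery shStag2, above 89.2, 98.3 and 93.3% of the entries of its own list. It was the highest-scoring globin contact in each list. The other 4 in Ery Luc scored from 5.18 to 6.56. One reached chr11:32160552-32167355, 120 kb upstream and within the window, 1 reached a fragment in Cpeb4, 406 kb away (5.65), and 2 reached other chromosomes, at Cep78 on chromosome 19 (5.40) and Cntn5 on chromosome 9 (6.56).

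The start fragment of Hba-x had 3 contacts in HPC, 4 in Ery Luc and 5 in Ery shStag2. Its highest score was to the fragment of Snrnp25 and Il9r at the far side of the window, 70.3 kb away, with 8.75 in HPC and 8.40 in Ery shStag2, and that pair was not listed in Ery Luc. The contact to the captured fragment of Bod1, 604 kb upstream, had the same distribution, with 5.71 in HPC, 5.46 in Ery shStag2 and no entry in Ery Luc. A contact to Hbq1a, 23.6 kb downstream, was listed in HPC only, at 5.12. In Ery Luc its 4 contacts all lay 312 to 391 kb upstream and scored at most 5.74. Since every entry passed a minimum score of 5, a pair that is not listed may lie just under it.

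Around these genes, the alpha window held 10 contacts with both ends inside it in HPC, 10 in Ery Luc and 6 in Ery shStag2. Contacts among the neighbours upstream of Nprl3 scored highest in HPC. The pair of the Snrnp25 fragment with Rhbdf1 had 18.64, 9.30 and 11.39, that with Mpg had 15.67, 7.70 and 9.37, and that with Nprl3 had 11.44, 7.76 and 7.34, in the order HPC, Ery Luc, Ery shStag2. The contact between Hba-a1 and Nprl3 had its highest score in Ery Luc and its lowest in HPC. Within Nprl3, 3 pairs of fragments were listed in Ery Luc, at 5.11, 5.99 and 7.58, and the last of these was also in HPC (5.70) and Ery shStag2 (5.84). Contacts of Hbq1a, the theta gene at the downstream end, with Il9r (6.33) and Rhbdf1 (5.27) were listed in Ery Luc only. The remaining 3 contacts inside the window, from Il9r to Snrnp25, Rhbdf1 and Mpg, were listed in HPC only, at 6.20, 5.14 and 7.12.

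**Figure D3:**
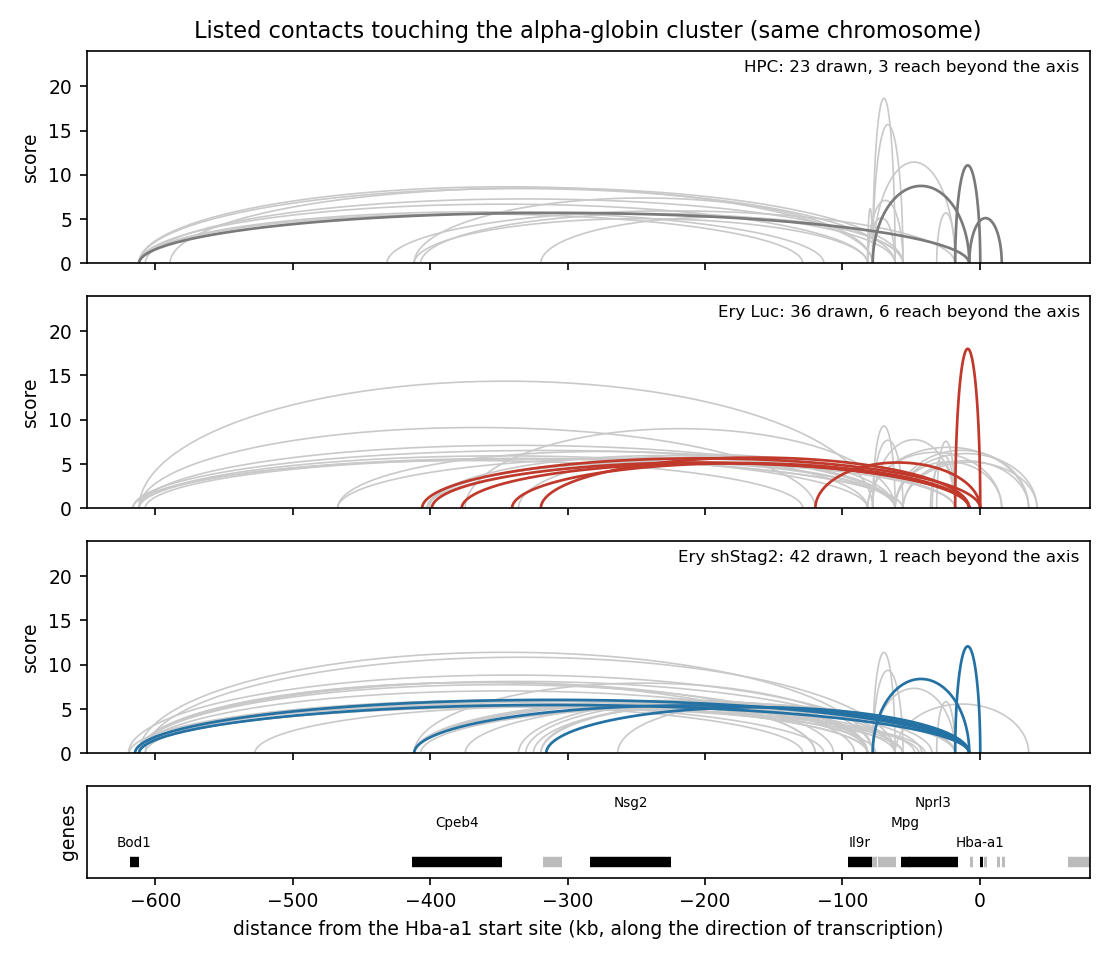
Contacts with an end in the alpha-globin window, by distance in kb from the Hba-a1 start, with the height of each arc equal to its score, in HPC (top), Ery Luc and Ery shStag2. Coloured arcs involve a globin fragment and grey arcs other fragments of the window, black bars mark labelled genes, and the tallest coloured arc in each panel is that between Hba-a1 and Nprl3, at 11.07, 18.02 and 12.08.

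Over the whole window, 13, 16 and 22 contacts landed in it as the second fragment, and 26, 46 and 48 had either end in it. Ery Luc thus had 20 more than HPC, and 4.23% of 12917 stretches of the same length along the genome gained as many or more. The stretches were not matched to the window for their captured fragments or their contacts in HPC. Ery shStag2 had 2 more than Ery Luc, a gain that 36.7% of stretches reached.

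In the beta cluster, the start fragment of Hbb-bs had 2 contacts in HPC, 5 in Ery Luc and 6 in Ery shStag2, all in the first column. In all 3 lists it was joined to the fragment that holds the end of Hbb-bh1 and the start of Hbb-bh2, 13.6 kb away, with scores of 5.19, 8.02 and 7.41 that lay above 8.47, 75.9 and 68.9% of each list. The second HPC contact reached Olfm5, 340 kb upstream, at 5.67, and was listed in Ery Luc at 6.96 but not in Ery shStag2. Ery Luc alone held contacts of Hbb-bs with the start of Hbb-bh1 (5.03), with Olfr66 (5.52, 52.3 kb) and with Olfr632 (5.40, 112 kb). Ery shStag2 alone held one with chr7:103862144-103865507, a fragment 36.1 kb upstream in the stretch between Hbb-y and Olfr66, at 5.14. It also alone held one with the fragment of Ubqlnl and Olfm5 (6.91, 324 kb) and 3 contacts over 1 Mb away, the highest to Olfr555 at 9.07. The transcript of Hbb-bs was 6.95-fold lower in Ery shStag2 than in Ery Luc, while its fragment had 6 and 5 listed contacts, 2 and 1 of them with scores of at least 7.

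Hbb-bh1, over both of its fragments, had 0 contacts in HPC, 13 in Ery Luc and 7 in Ery shStag2 when only the first column was counted, and 7, 15 and 16 in either column. Of the 13 more contacts in Ery Luc than in HPC in the first column, 8 remain when both columns are counted, and with scores of at least 7 the either-column counts were 1, 3 and 6. The fragment at its end had 5, 6 and 12 contacts, and that at its start 2, 9 and 4. Apart from the contact with Hbb-bs, its 6 HPC contacts lay 217 to 355 kb upstream in the stretch of olfactory receptor genes, the highest to Olfr649 at 8.31 from the end fragment and 6.74 from the start fragment. Both pairs were also listed in Ery shStag2, at 7.14 and 6.25, and neither in Ery Luc. The highest in Ery Luc was to Olfr556 on the other side, 1170 kb away, at 8.16, and that pair was listed in Ery shStag2 at 7.64. In Ery shStag2 the highest was to a fragment of Rrm1, 1371 kb away, at 9.93. The same Rrm1 fragment was listed with the start of Hbb-bh1 in Ery Luc at 6.93. Rrm1 encodes a subunit of ribonucleotide reductase.

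Long contacts were listed at the beta-globin fragments in both Ery conditions and not in HPC. Of the contacts of the 3 beta-globin fragments within the chromosome, 0 of 8 in HPC, 6 of 17 in Ery Luc and 9 of 19 in Ery shStag2 spanned over 1 Mb. No contact of the alpha-globin fragments did so. The lists differ in the same direction as a whole: of the entries within a chromosome, 1.15% in HPC, 7.05% in Ery Luc and 8.81% in Ery shStag2 spanned over 1 Mb. Of all entries, 0.469, 7.14 and 7.46% joined different chromosomes. The part of that overall difference in the globin counts was not tested.

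**Figure D4:**
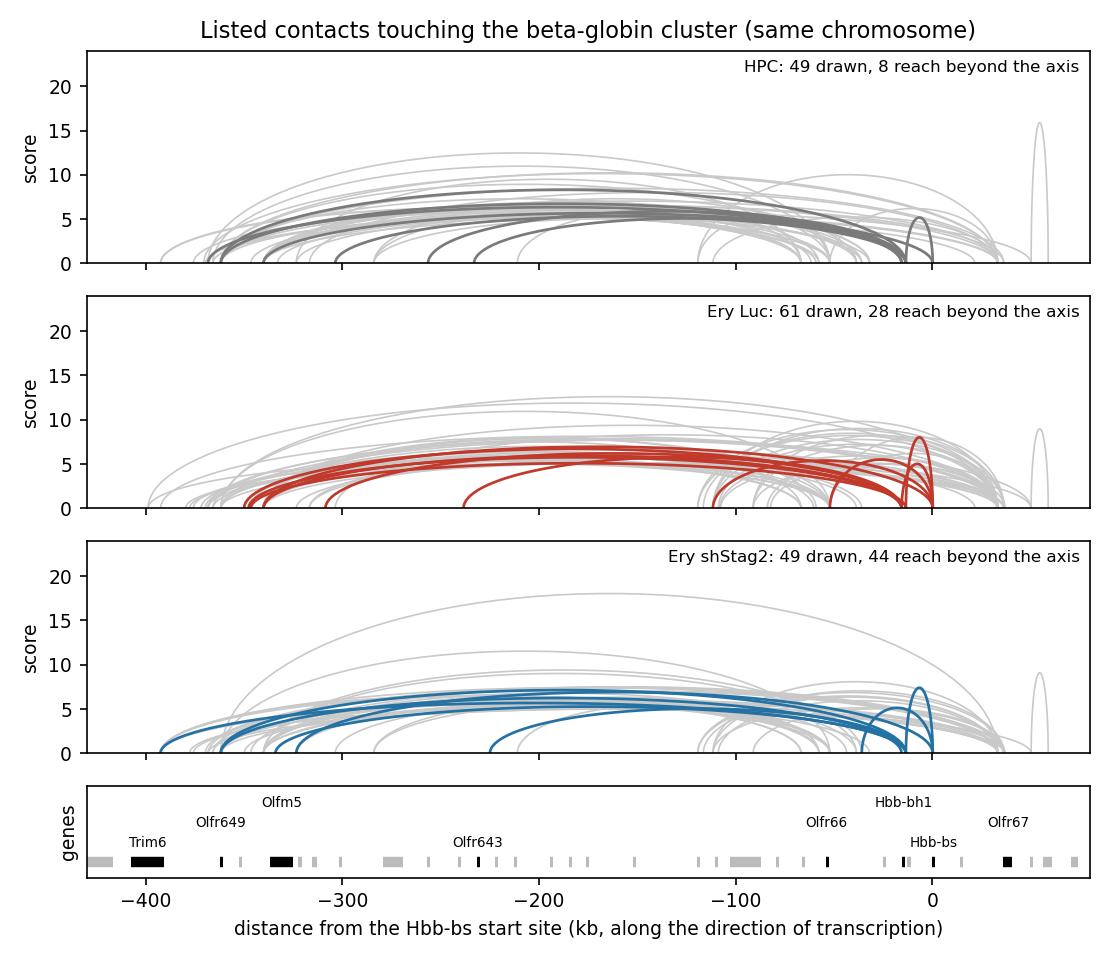
Contacts with an end in the beta-globin window, by distance in kb from the Hbb-bs start along its transcription, with the height of each arc equal to its score, in HPC (top), Ery Luc and Ery shStag2. Coloured arcs involve a globin fragment, grey arcs other fragments of the window, and the short coloured arc near 0, at 5.19, 8.02 and 7.41, joins Hbb-bs to Hbb-bh1; contacts that reach beyond the axis number 8, 28 and 44.

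Over the whole beta window, 38, 46 and 61 contacts landed in it, and 57, 94 and 100 had either end in it. Ery Luc had 37 more than HPC, and 0.873% of 15921 stretches of the same length gained as many or more. Here too the stretches were not matched to the window for captured fragments or HPC contacts. Ery shStag2 had 6 more than Ery Luc, which 12.4% of stretches reached. Contacts over 1 Mb were 3, 25 and 38 of these. Only 2, 5 and 2 contacts had both ends inside the window. Besides those of Hbb-bs above, they joined Olfr67, at the downstream side, to Olfr66, at the upstream side: 1 pair at 6.20 in HPC and 6.21 in Ery Luc, and another at 8.04 in Ery Luc. Neither of the pairs across the cluster was listed in Ery shStag2.

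How often a globin contact recurred depended on the pair of lists. Of the 12 in HPC, 3 (25.0%) were also in Ery Luc, against 46.2% of the whole HPC list, and 6 (50.0%) were in Ery shStag2, against 45.5%. Of the 27 in Ery Luc, 3 (11.1%) were in HPC, against 42.2%, and 3 (11.1%) in Ery shStag2, against 45.2%. Of the 27 in Ery shStag2, 6 (22.2%) were in HPC, against 39.1%, and 3 (11.1%) in Ery Luc, against 42.5%. Most globin contacts score under 6, and for entries that score 5 to 6 the whole-list shares were 25.6 and 25.5% for HPC, 26.9 and 26.3% for Ery Luc, and 25.0% for Ery shStag2 in both other lists. Allowing the other end to lie within 10 kb, 5 of the 12 HPC contacts recurred in Ery Luc and 8 in Ery shStag2. By that measure, 6 of the 27 Ery Luc contacts recurred in HPC and 10 in Ery shStag2, and 8 of the 27 in Ery shStag2 recurred in HPC and 9 in Ery Luc. Whole-list shares were not computed within 10 kb, and those given above are for identical pairs only.

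Genes next to the clusters and regulators of globin were counted in both ways, in the first column and in either. The counts of genes with at least 2 more or fewer contacts stand against those over all genes: in the first column, 39% of genes had more and 24.4% fewer in Ery Luc than in HPC, and 32% more and 25.5% fewer in Ery shStag2 than in Ery Luc. Of 9 alpha neighbours with contacts, 4 had more in Ery Luc than in HPC and 4 fewer (3 and 4 in either column). Nprl3 had 2 in HPC and 6 in Ery Luc (4 and 9 in either column), Rhbdf1 2 and 9 (4 and 11), and Snrnp25, on the fragment it shares with Il9r, 9 and 6 in both counts. In the first column, the 4 with fewer were Snrnp25 and Il9r, which count the same fragment, Ubtd2 (6 and 2) and Polr3k (13 and 8). Polr3k lies on chromosome 2 in the mouse and is no neighbour there, but it remains in the counts and medians of that list. From Ery Luc to Ery shStag2, 0 of the 9 had more and 6 had fewer, in both counts, with Polr3k among the 6. Nprl3 had 3 in Ery shStag2 and Rhbdf1 6 in the first column (6 and 8 in either). The 6 beta neighbours with contacts include Hbb-bh2, which is on the same fragment as the end of Hbb-bh1 and has the same contacts as that fragment. In the first column 4 of the 6 had more and 2 fewer in Ery Luc than in HPC, and in either column 3 had more and 1 fewer. Olfr67 had 7 and 19 (10 and 24 in either column). Rrm1 had 33 and 27 in the first column but 38 and 39 in either. From Ery Luc to Ery shStag2, 3 of the 6 had fewer in both counts, while 0 had more in the first column and 1, Hbb-bh2, had more in either (6 and 12). Of 22 regulators with contacts, 13 had more in Ery Luc than in HPC in both counts, and 4 had fewer (6 in either column). Gata1, a master regulator of red cells, had 24 and 13 (27 and 18 in either column), and Klf1, a main activator of adult beta globin, 15 and 18 (22 and 24). In Ery shStag2, Klf1 had 6 and Gata1 8 (12 for each in either column), and 7 regulators had more and 7 fewer than in Ery Luc. Among those with more in Ery shStag2 were Tal1 (35 in Ery Luc and 47 in Ery shStag2), Fech (9 and 18) and Runx1 (11 and 17), in the first column. The median first-column difference between HPC and Ery Luc was 4 for the globin genes, 1 for the alpha neighbours, 4.5 for the beta neighbours (2.5 in either column) and 3 for the regulators (2 in either), against 1 for all genes. Between Ery Luc and Ery shStag2 it was -4, -2, -1.5 and 0 (in either column -3, -3, -1.5 and 0.5), against 0 for all genes.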

How the data were processed

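Counts per transcript of 15 RNA-seq libraries were deposited by the authors, 1 file per library. STAR 2.4.0, HTSeq and the mm10 build are named for the series, with no role, per the submitters' processing notes. The 5 lines that name no transcript were left out of library sizes (no feature 9.19 to 18.0% of reads, ambiguous 24.2 to 26.9%). Of 55943 identifiers, 18065 passed edgeR's filter on low counts. They were fitted in edgeR 4.0.16 (R 4.3.3) with TMM factors and a quasi-likelihood test over all 15 libraries, by group, and called at an adjusted p of 0.05. DESeq2 1.42.0 was an alternative. The Hbb-bs transcript took part in 10 comparisons. The code was tested on simulated data. All libraries of a group differed beyond counting noise (chi-square per degree of freedom 2.17 to 35.6).

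Capture Hi-C pairs with a score were deposited by the authors as 3 lists, each of 2 pooled libraries. How the score was made is not given in the sources used here. Fragments were matched to genes by GRCm38.p6 positions, an mm10-based annotation, and contacts were counted by script. Transcript identifiers could not be matched to symbols, so Hbb-bs was the only member followed in RNA. ChIP-seq samples were not used.

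Deviations from the group means of same-numbered HPC libraries had a correlation of 0.114 to 0.323 for shStag2 and shRad21 (3 pairs). For Luc and shRad21 it was 0.0431 to 0.187. Libraries with different numbers were not compared, and those numbered 3 stood apart in each group that has one. These correlations therefore do not show that the numbers pair samples, and the labels give no pairing. Alternatives were other scaling, filters, tools, blocks, left-out libraries, score minimums and windows. The members and lists were chosen with earlier results of these data known. Named contacts were the highest-scoring of each globin fragment in each list and all those within a window or between globin fragments, and named transcripts the 2 most and 2 least correlated with Hbb-bs. Other contacts and genes named were chosen after their values were seen.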

Additional observations from a re-analysis of the deposited data

Results flagged for a closer look

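The rise of the Hbb-bs transcript from HPC to Ery differed between hairpins: the log2 fold change was larger by 1.94 with shStag2 than with Luc, by the interaction term of the edgeR fit (adjusted p = 0.0105). The rise was 9.89 in shStag2 and 7.95 in Luc. No group had the 4 or more samples that a check for a single deviating library needs.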

How the results depend on the processing

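Of 121 alternative values of the 10 Hbb-bs comparisons, 119 kept their direction and their side of the threshold. The interaction ranged from 1.52 to 2.74 with 1 library left out and was past the threshold in all but 1 of these. The difference of shRad21 from shStag2, never past the threshold, ranged from -1.10 to 0.24 with 1 library left out, and turned positive without shStag2 replicate 2. With the replicate number as a block, no call changed: the interaction was 1.92 (edgeR adjusted p = 0.000571) and shStag2 against Luc in HPC -4.71. The number is not shown to pair Luc with shStag2 (correlation 0.0231 to 0.184 over 3 pairs) or the Ery groups (-0.0032).

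Contact counts depend on the score minimum, the window and the column, and 29 of 63 alternative values stayed close to the count given. For the globin fragments (4, 26 and 18, with Ery Luc in the middle here and below), a minimum of 7 left 1, 4 and 5 and a minimum of 10 left 1, 1 and 1, while either column gave 12, 27 and 27. For contacts landing in the alpha window (13, 16 and 22), a minimum of 7 left 6, 7 and 8, and a minimum of 10 left 4, 1 and 2. A window 50 kb wider on each side gave 18, 27 and 32, and either column gave 26, 46 and 48. For the beta window (38, 46 and 61), a minimum of 7 left 9, 20 and 25, and a minimum of 10 left 3, 2 and 7. The wider window gave 102, 127 and 153, and either column gave 57, 94 and 100. Of the neighbours and regulators together, 21 gained in Ery Luc, or 6 at a minimum of 10. From Ery Luc to Ery shStag2, 7 gained, or 4 at a minimum of 10, and 16 lost, Polr3k among them, or 8 at 7 and 4 at 10. With other ends up to 10 kb apart, 5 in place of 3 HPC contacts recurred in Ery Luc, and 10 in place of 3 Ery Luc contacts in Ery shStag2. The either-column counts were added after seeing the data. The counts of HPC progenitor reads (0 to 14 per cohesin-hairpin library) limit the ranking of the hairpins.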

Other observations

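Some fragments outside the clusters recurred as partners of a globin window, in either column, and were picked out after their values were seen. The captured fragment of Bod1 had 6 contacts with the alpha window in HPC, 5 in Ery Luc and 14 in Ery shStag2, and that of Cpeb4 had 2, 0 and 5. With the beta window, a fragment of Olfm5 had 12, 10 and 10 contacts and that of Olfr649 had 9, 6 and 6. On the other side of the beta cluster, over 1 Mb away, Olfr556 had 0, 4 and 8, Olfr557 had 0, 7 and 3, and Trim21 had 0, 3 and 4.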
